A study of Mus musculus with 18 samples.

Results

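In the brains of 3 wild-type (WT) male C57BL/6 mice aged 8 weeks and given no treatment, the codons found under the ribosomal A site were set against the codons expected from the mRNAs that the ribosomes held. The observed side was the share of each of the 61 sense codons in 3 ribosome-contained mRNA libraries sequenced on a MiSeq. The expected side came from the ribosome-contained mRNA of the same 3 mice sequenced on a HiSeq, so 6 of the 18 libraries of the series entered, and all 61 codons and 20 amino acids were described. The other libraries were total mRNA of the same mice, used only as an alternative weight, and libraries of Ftsj1 knockout mice, which were not used. Each gene's HiSeq count was divided over the sense codons of its longest annotated coding sequence, and these parts were summed over genes. Values are given as the ratio of observed to expected share, or its log2.

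The A site is the ribosomal position that receives the incoming aminoacyl-tRNA. A codon stays there until its tRNA has been selected, the peptide bond has formed and the ribosome has moved along. Several tRNAs read more than 1 codon by wobble at the last base of the codon, and modified bases of the anticodon loop tune that reading. Ftsj1, intact in these mice, methylates the ribose of anticodon loop positions in tRNAs for phenylalanine, tryptophan and leucine. Footprint ends also reflect nuclease cutting and adaptor ligation, so the time a codon spends in the A site and a preference of the library steps cannot be told apart in these counts.

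The coding sequences below show what the expectation is made of. Atp5b, the beta subunit of mitochondrial ATP synthase (chr10:128083273-128090391, plus strand, GRCm38), carried 1.05% ± 0.0158 (SD, n = 3) of the expectation weight, the largest part of any gene. Syp, the synaptic vesicle protein synaptophysin (chrX:7638471-7653256, plus strand, GRCm38), came next with 0.999% ± 0.00829. The first stretch shows AGA, the arginine codon with the highest ratio. The other stretches show the proline codon CCA, which was above expectation, and the phenylalanine codon TTC and the tyrosine codon TAC, which were the lowest. Each stretch is 90 bases of spliced coding sequence, 5′ to 3′ and in frame, with the named codon in capitals.
Atp5b AGA: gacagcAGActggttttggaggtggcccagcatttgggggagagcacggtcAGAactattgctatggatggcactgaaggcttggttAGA
Syp CCA: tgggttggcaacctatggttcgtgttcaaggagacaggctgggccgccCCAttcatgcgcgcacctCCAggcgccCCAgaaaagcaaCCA
Syp TTC: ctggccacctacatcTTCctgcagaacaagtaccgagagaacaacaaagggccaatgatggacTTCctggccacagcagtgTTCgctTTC
Syp TAC: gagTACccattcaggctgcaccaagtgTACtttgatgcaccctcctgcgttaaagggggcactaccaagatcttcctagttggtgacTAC
These are codons 92 to 121 of Atp5b and codons 216 to 245, 123 to 152 and 72 to 101 of Syp. Atp5b has 9 AGA codons among 529 sense codons and gave 2.01% of all AGA expected. Syp has 16 TTC codons among 314 and gave 2.20% of all TTC expected. Syp also has 12 TAC codons, 2.06% of those expected, and 8 CCA codons, 1.91%.

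The A-site libraries of mice 1, 2 and 3 held 70947, 61251 and 61283 counts of sense codons, with 288 to 3719 counts per codon and library. Wilson 95% intervals of a codon's share in a single library reached 0.0505 to 0.173 percentage points to either side, which was 3.13% to 11.5% of the share, and cover counting error only. The HiSeq libraries held 1212043, 1165451 and 1560192 counts, of which 89.8%, 89.7% and 89.0% fell on nuclear genes with a coding sequence and entered the expectation. Genes with 1 transcript accession carried 93.8% of this weight, so genes with several transcript models hardly entered it. Brain markers were present: the summed level of 7 neuronal markers was 5829 to 6151 CPM (counts scaled to a common library total), with Syt1 alone at 0, and all 5 astrocyte markers had counts. The choroid plexus list summed to 4816 to 5399 CPM. Markers of liver summed to at most 4.29 CPM and those of heart were at 0. A chi-square test of codon counts over 63 degrees of freedom found no difference past counting error between mice 1 and 2 (p = 0.0928), and found one between mice 1 and 3 (p = 0.0122) and mice 2 and 3 (p = 0.0338). The labels give them as separate mice, so each was counted as a replicate.

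A-site shares followed codon use in the mRNAs, and single codons departed from it by up to 2.15-fold. Across the 61 codons the observed share followed the expected share with Pearson's r of 0.898 and Spearman's rho of 0.889, a description across codons that share their libraries. The commonest codon in the A site was GAG for glutamate, at 5.09% against 4.59% expected, and the rarest was TTA for leucine, at 0.496% against 0.482%. The SD of the log2 ratio across codons was 0.34. Its SD over the 3 mice was 0.0404 for the median codon and 0.133 for the most variable one. The expected shares varied even less over the mice, with a median SD of 0.00224 in log2. Departures from expectation were thus larger than the spread between mice for most codons.

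**Figure D1:**
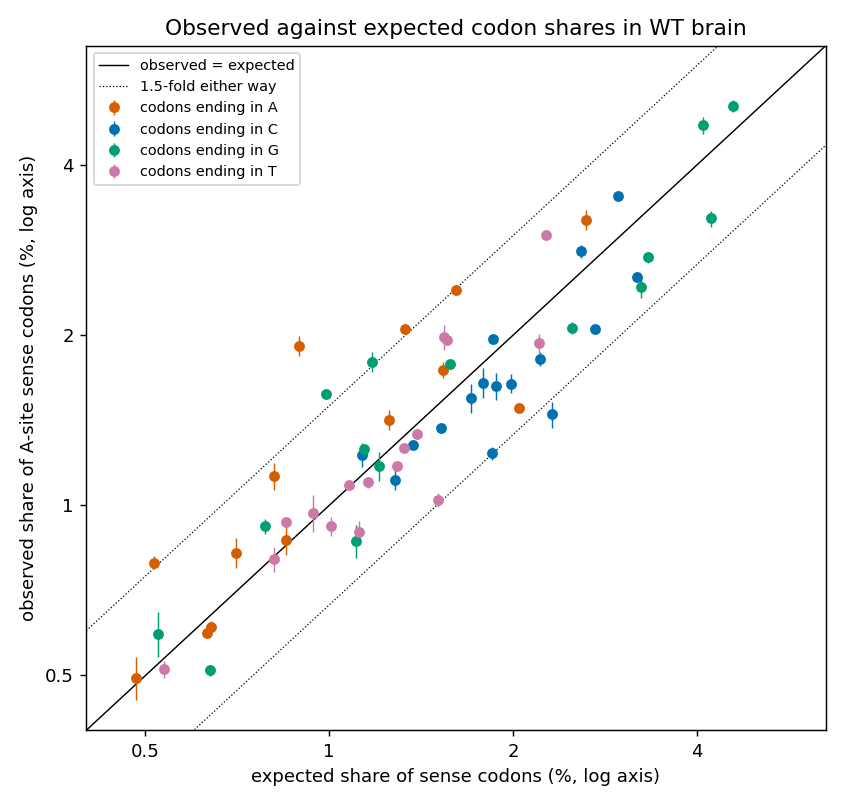
Observed share of each of the 61 sense codons in the A site (mean of 3 WT mice, bars ± SD) against its expected share, both in percent of sense codons on log axes, coloured by the third base. The solid line marks equality and dotted lines mark 1.5-fold either way; 6 codons lie beyond them by the call rule, the farthest at 1.92% observed against 0.893% expected.

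A codon was called where the Benjamini-Hochberg adjusted p of edgeR's quasi-likelihood test was under 0.05, and called large where the ratio was also at least 1.5-fold either way. The test found 52 of 61 codons different from expectation (85.2%), 25 higher (41%) and 27 lower (44.3%), and 6 of them were large (9.84%). All 3 mice lay above expectation for 25 codons and all 3 below for 30. The expected share was taken as known in this test, so its p-values cover the spread between mice and counts, not the choice of genes and coding sequences. Shares sum to 100%, so a codon with more of the A site leaves less for the others. The median log2 ratio was -0.04.

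Arginine codons of the AGA and AGG box stood highest. AGA made up 1.96%, 1.96% and 1.83% of A-site sense codons in mice 1, 2 and 3 (Wilson 95% intervals 1.86 to 2.06, 1.86 to 2.08 and 1.72 to 1.94), against 0.893% expected. Every mouse had more than 2 times the expected share, with ratios of 2.19, 2.20 and 2.05. The fitted ratio was 2.15 (95% interval 2.05 to 2.25; log2 1.10, SE 0.0273, adjusted p = 1.04e-06, edgeR). AGG made up 1.56%, 1.56% and 1.60%, against 0.986% expected, a ratio of 1.60 (1.54 to 1.65). The mice lay close together for AGG, and each was far above the expected share. The other 4 arginine codons, of the CGN box, were nearer to expectation: CGA (log2 0.23) and CGG (0.14) were higher, CGC (-0.21) was lower and CGT (-0.07) was not called.

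Codons ending in A for proline and isoleucine were next, then TGG for tryptophan and GGA for glycine. CCA, a codon for proline, made up 2.06%, 2.06% and 2.04% against 1.33% expected (ratio 1.54, 1.49 to 1.59, adjusted p = 1.04e-06, edgeR). The 3 mice were almost equal, and the SD was 0.00909 percentage points. ATA, the rarest isoleucine codon, made up 0.792%, 0.771% and 0.813% against 0.515% (ratio 1.54, 1.46 to 1.62). The place of ATA rested on leaving mitochondrially encoded genes out of the expectation: with their transcripts counted, its log2 ratio was -0.0386 and not called (adjusted p = 0.258, edgeR). Those transcripts use ATA as a methionine codon and held 5.62% to 6.07% of the ribosome-contained counts. GGA, for glycine, was at 2.38%, 2.44% and 2.38% against 1.62%, a ratio of 1.48 that lay just under the 1.5-fold mark.

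TGG, the only tryptophan codon, made up 1.75%, 1.88% and 1.75% of A-site codons against 1.18% expected. Mouse 2 was highest and mice 1 and 3 were level, and all lay above expectation (ratio 1.53, 1.45 to 1.60, adjusted p = 5.43e-06, edgeR). Without mouse 2 the ratio of Trp was 1.49, still called but no longer large.

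Phenylalanine and tyrosine codons stood lowest. TTC, for phenylalanine, made up 1.40%, 1.53% and 1.41% in the 3 mice against 2.32% expected. Wilson 95% intervals were 1.32 to 1.49 for mouse 1, the lowest, and 1.44 to 1.64 for mouse 2, the highest. Each mouse had well under the expected share, and mouse 2 came nearest to it. The ratio was 0.625 (95% interval 0.591 to 0.661; log2 -0.68, SE 0.0327, adjusted p = 5.09e-06, edgeR), and TTC was the only codon called large among the lower ones. TTT, the other phenylalanine codon, made up 1.02%, 1.05% and 0.997% against 1.51%, a ratio of 0.678 (0.647 to 0.710). TAC, for tyrosine, made up 1.22%, 1.21% and 1.27% against 1.85%, a ratio of 0.669 (0.640 to 0.699) that lay just inside the 1.5-fold mark. TAT, its partner, had a log2 ratio of -0.32.

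Codons for lysine, valine and glycine completed the lowest 6. AAA, for lysine, made up 1.51%, 1.48% and 1.47% against 2.05%, a ratio of 0.726 (0.700 to 0.754). The other lysine codon, AAG, was higher than expected (log2 0.20), so the pair went opposite ways. GTG, the commonest valine codon, made up 2.31%, 2.50% and 2.50% against 3.24%, a ratio of 0.752 (0.716 to 0.789). GGC, for glycine, made up 2.09%, 2.02% and 2.04% against 2.73%, also a ratio of 0.752 (0.727 to 0.778), while GGA of the same amino acid was among the highest. ATG, which codes for methionine and for the start of translation, made up 2.11%, 2.01% and 2.05% against 2.50%, a ratio of 0.825 (0.795 to 0.856). The expectation counts the start codon of every gene. With that codon left out, ATG was at -0.0813 in log2, against -0.28 with it, and with 15 codons trimmed at the start and 5 at the end at -0.0943. 

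The codons of tRNAs that are known or likely substrates of Ftsj1 did not go one way in these WT brains. TGG was higher, TTT and TTC were lower, and the leucine codons TTA and TTG were not called; the median log2 ratio of the 5 was -0.04, equal to that of all codons at this rounding. TTA made up 0.472%, 0.545% and 0.470% against 0.482%, so mouse 2 was above and the other mice below expectation (ratio 1.03, 95% interval 0.936 to 1.12). TTG made up 1.24%, 1.17% and 1.11% against 1.21% (ratio 0.974, 0.914 to 1.04), with mouse 1 alone above. The call of TTA turned on the weights: it was lower with mitochondrially encoded genes kept (-0.367), equal weights (-0.227) and genes of 2 or more accessions (-0.146), and higher with total mRNA weights (0.156). TTG was called lower with equal weights (-0.0961). Summed, the 5 codons took 5.89%, 6.18% and 5.74% of the A site against 6.69% expected.

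**Figure D2:**
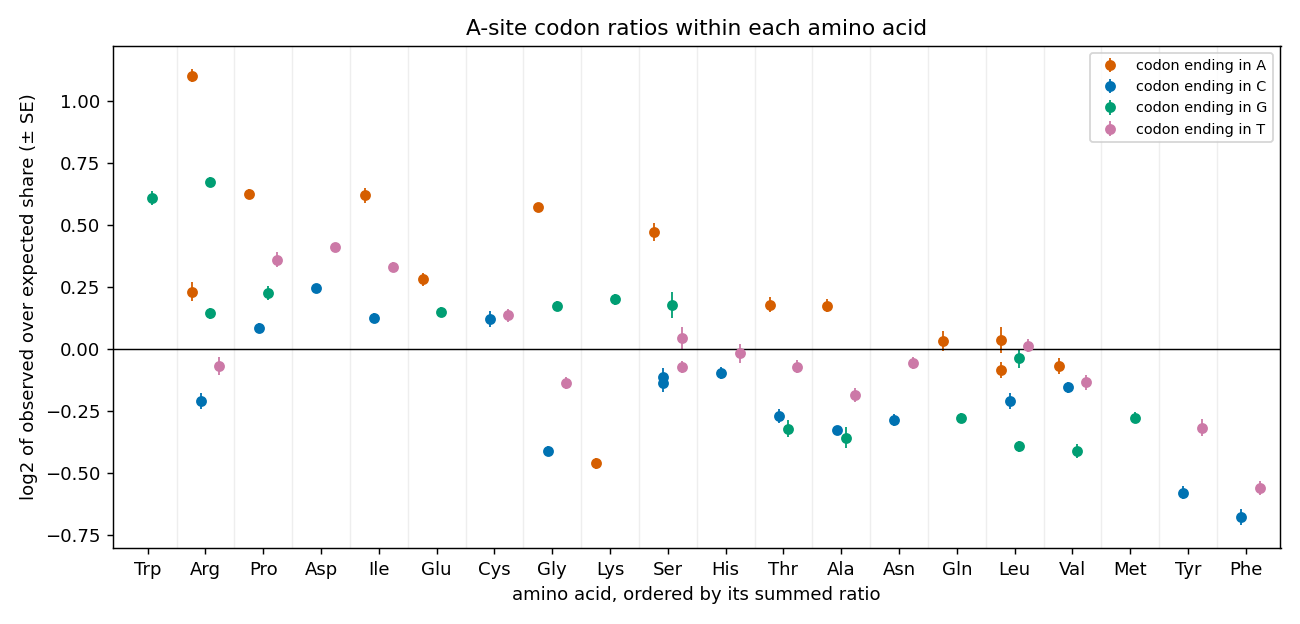
Fitted log2 ratio of observed over expected A-site share for each of the 61 sense codons (points, bars ± SE, n = 3 WT mice), grouped by amino acid in the order of the summed ratio and coloured by the third base. Arginine spans from -0.21 to 1.10, whereas both phenylalanine codons (-0.56 and -0.68) lie low.

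Summed over codons, 18 of 20 amino acids differed from expectation (90%), 8 higher (40%) and 10 lower (50%), and 2 were large (10%), Trp upward and Phe downward. All 3 mice lay above expectation for 8 amino acids and below for 10. Trp is described above with TGG. Arg, a basic residue, made up 7.20%, 7.24% and 7.15% against 5.54% (ratio 1.30, 95% interval 1.28 to 1.32, adjusted p = 9.58e-07, edgeR). Pro made up 6.83%, 6.85% and 7.10% against 5.52% (ratio 1.25, 1.22 to 1.29), with mouse 3 highest. Asp, an acidic residue, made up 6.53%, 6.48% and 6.57% against 5.23% (ratio 1.25, 1.23 to 1.27). For Arg and Asp the mice differed by far less than the distance to expectation.

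At the low end, Phe made up 2.42%, 2.59% and 2.41% against 3.82% (ratio 0.646, 0.618 to 0.674, adjusted p = 2.95e-06, edgeR). Tyr made up 2.14%, 2.14% and 2.12% against 2.97% (ratio 0.719, 0.700 to 0.739), with hardly any spread between mice. Met was the next, with the ATG values given above. With the start codon left out, however, Met was at -0.0811 in log2, behind Val (-0.27), Leu (-0.22), Gln (-0.21), Asn (-0.20), Ala (-0.19) and Thr (-0.11). Val made up 5.19%, 5.39% and 5.42% against 6.41% (ratio 0.832, 0.809 to 0.855), and mouse 1 was lowest. None of these groups of 3 values overlapped its expected share.

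By class, both acidic residues were higher (Asp 0.32 and Glu 0.20 in log2), as were Gly (0.04), Pro (0.33) and Cys (0.13). Of the 5 aliphatic residues 1 was higher, Ile (0.26), and 4 were lower, Ala (-0.18), Leu (-0.21), Val (-0.27) and Met (-0.28). Met was at -0.0811 with the start codon left out of the expectation. Of the 4 polar residues Thr (-0.11), Asn (-0.19) and Gln (-0.21) were lower and Ser (0.01) was not called. The basic residues split, with Arg higher (0.38), His lower (-0.07) and Lys (0.01) not called. The aromatic residues split too, Trp higher (0.61) and Tyr (-0.48) and Phe (-0.63) lower. The median over all 20 was -0.03. Some of the smaller departures were not stable. Cys was at -0.0410 with equal gene weights, and Ala was at -0.0227 and not called with genes of 2 or more accessions (adjusted p = 0.126, edgeR). Gly (adjusted p = 0.0846) and His (adjusted p = 0.120, edgeR for both) were not called without mouse 1. Gly was not called with total mRNA weights (adjusted p = 0.130), nor His when ratios were centred on their median (adjusted p = 0.0597, edgeR for both). Lys was called higher with mitochondrially encoded genes kept (0.0646), equal weights (0.0821) and genes of 2 or more accessions (0.0821). Ser was called lower with equal weights (-0.138) and genes of 2 or more accessions (-0.126).

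**Figure D3:**
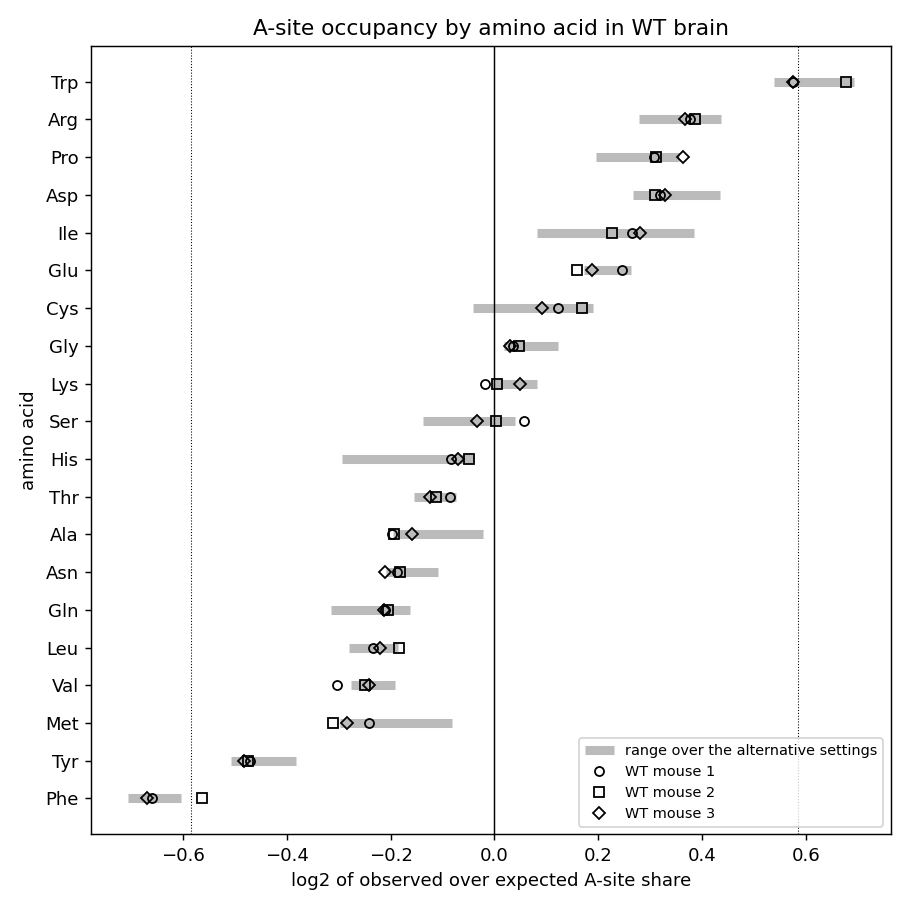
Log2 ratio of observed over expected A-site share for the 20 amino acids, with 1 symbol per WT mouse and a grey bar for the range of the fitted ratio over the alternative settings. Dotted lines mark 1.5-fold either way; Trp (0.61) and Phe (-0.63) reach them, and the grey bars of Cys, Ser and Lys cross 0.

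Within some amino acids codons lay far apart, and within others they lay together. The span from the lowest to the highest codon was widest for Arg, at 1.31 in log2, then 0.98 for Gly, 0.66 for Lys and 0.61 for Ser. It was narrowest for Cys, at 0.0139, His, at 0.0805, Phe, at 0.12, and Glu, at 0.13. The SD of the ratio within amino acids was 0.24 in log2 across 59 codons, and that of the summed ratio was 0.31 across the 20 amino acids. Set against the share expected within their own amino acid, 49 of 59 codons with a synonym differed (83.1%). The calls were 25 higher (42.4%) and 24 lower (40.7%), and 2 were large (3.39%). Of the 59, only 12 were called higher and 11 lower with the same sign in all 17 alternative settings of this fit. A codon with a larger share of its amino acid leaves less for its synonyms, so these calls are not separate results. AGA made up 27.2%, 27.1% and 25.6% of arginine codons against 16.1% expected, a ratio of 1.65. CGC made up 15.4% ± 0.599 (SD, n = 3) against 23.2%, a ratio of 0.666 that lay at the 1.5-fold mark and passed it with all 3 mice but not without mouse 1 or mouse 3. Each mouse thus had more AGA and less CGC among its arginine codons than its mRNAs held.

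For other amino acids the within-residue departures were smaller. GGA made up 32.4% ± 0.267 of glycine codons against 22.4%, and GGC 27.7% ± 0.556 against 37.8%. AAA stood at 0.721 times its expected share of lysine codons. TCA made up 15.8% ± 0.831 of serine codons against 11.4%. Phenylalanine showed little of this: TTC made up 58.6% ± 0.711 of its codons against 60.6%, not called, and TTT was higher by 0.07 in log2. TTA (0.25) and TTG (0.18), not called against all codons, were higher than expected among the 6 leucine codons, of which CTG, the commonest, made up 39.3% ± 0.661 against 44.5%.

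The third base, where wobble occurs, sorted the codons. Of 14 sense codons ending in A, 9 were higher and 2 lower (median log2 ratio 0.21), against 25 higher and 27 lower of all 61 (median -0.04). They took 19.8%, 19.4% and 19.4% of the A site in mice 1, 2 and 3, where 15.95% was expected. Of 16 codons ending in C, 4 were higher and 12 lower (median -0.18), and they took 28.9%, 28.9% and 28.8% against 32.4%. Those ending in G (8 higher and 6 lower of 15) and in T (4 higher and 7 lower of 16) took 30.7% and 20.9%, against 31.1% and 20.6% expected. Within amino acids, 12 of the 14 codons ending in A were higher and 2 lower, and of the 16 ending in C 1 was higher and 11 lower. The lower ones ending in A were AAA (-0.47) and CGA (-0.15).

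Comparing pairs that differ only in the third base removes the amino acid and the first 2 bases. In all 16 pairs of a C-ending and a T-ending codon, the C-ending one was the lower relative to expectation on the mean of 3 mice. This held in each of the 3 mice for 12 pairs, and no pair went the other way in all 3. The difference ran from -0.28 to -0.01 in log2 with a median of -0.16. It was largest for proline, with CCC over CCT at -0.23, -0.27 and -0.33 in the 3 mice, and smallest for cysteine, where mouse 2 went the other way. In the 13 pairs ending in A or G, the A-ending codon was the higher in 12, in each mouse for 10, with a median of 0.31. Alanine led, with GCA over GCG at 0.58, 0.54 and 0.47. Lysine was the exception, with AAA over AAG at -0.60, -0.66 and -0.74. The pairs were set only against the expectation from ribosome-contained mRNA and were not recomputed under other weights. With equal gene weights the log2 ratio was -0.595 for TTC and -0.623 for TTT, so the phenylalanine pair turned round. It did so too with genes of 2 or more accessions (-0.603 and -0.625).

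**Figure D4:**
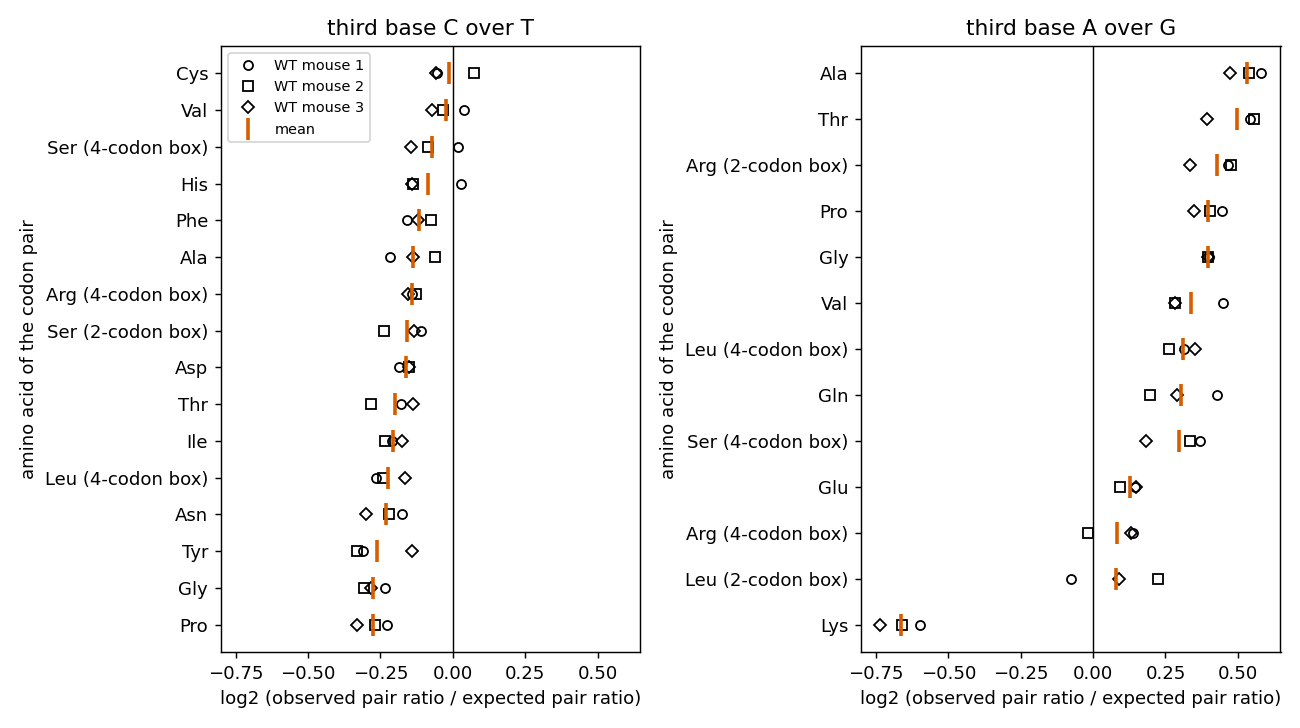
Log2 of the observed over the expected ratio of 2 codons that differ in the third base, for the 16 pairs ending in C or T (left) and the 13 pairs ending in A or G (right), with 1 symbol per WT mouse and a bar for the mean. With ribosome-contained mRNA as weights, all 16 means on the left lie below 0, from -0.28 to -0.01, and on the right only lysine (-0.66) does.

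Boxes were also grouped by how the C-ending and T-ending codons are read, beside 25 higher and 27 lower of all 61 codons. In the 8 boxes read through inosine at the wobble position, 2 C-ending codons were higher and 6 lower (median -0.18), and of the T-ending ones 2 were higher and 4 lower (median -0.07). In the 7 boxes that hold only a C-ending and a T-ending codon, 2 C-ending codons were higher and 5 lower (median -0.11), and of the T-ending ones 2 were higher and 2 lower (median -0.02). Nothing particular to either kind of box was tested. By RefSeq gene records (GRCm38), 403 nuclear tRNA genes carry an anticodon in their symbol, and 48 of the sense codons have a gene with the matching anticodon. Of these 48, 21 were higher and 20 lower (median -0.00200), and of the other 13, 4 were higher and 7 lower (median -0.16), against 41% higher and 44.3% lower of all codons. The number of tRNA genes with the matching anticodon did not order the codons. Its Spearman's rho with the log2 ratio was 0.0129 over 61 codons and -0.169 over the 48, as a description. Codons with no exact match, such as ATC and GAT, which are read by wobble, counted 0 genes. These values therefore cannot show an ordering by all tRNA genes that read a codon. AGA and AGG each had 5 such genes, TTC had 7 and TAC had 10. Gene number is not tRNA abundance, which was not measured.

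Stop codons, which release factors recognise, were left out of the shares above. They made up 893, 774 and 676 A-site counts, or 1.24%, 1.25% and 1.09% of all codons (Wilson 95% intervals 1.16 to 1.33, 1.16 to 1.34 and 1.01 to 1.18), against 0.325% expected from 1 stop per coding sequence. The ratio was 3.68 ± 0.275 (SD, n = 3), above that of every sense codon. TGA stood highest, at 4.91 ± 0.329 times expectation, then TAG at 3.60 ± 0.309 and TAA at 1.81 ± 0.280. The order was the same in each mouse, with TGA at 5.22, 4.94 and 4.57 and TAA at 1.84, 2.08 and 1.52. Among stop codons, TGA made up 64.3% ± 2.09 against 48.1% expected and TAA 15.2% ± 1.41 against 31.0%. No test was run on the stop codons. Their expectation came from nuclear genes only and was not recomputed under other weights. Mitochondrially encoded transcripts, left out of it, held 5.62% to 6.07% of the ribosome-contained counts. They use TGA as a tryptophan codon, so the TGA counts may include codons that are not stops. How far this raised TGA above TAG and TAA was not tested.

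The choice of weights moved both the sizes and the order of the ratios. With total mRNA of the same mice as weights, r across codons was 0.895, and with equal weight for every gene it was 0.894, close to the 0.898 of ribosome-contained mRNA. Genes with 2 or more accessions alone gave 0.915. Spearman's rho was 0.904 with equal weights, 0.889 with ribosome-contained mRNA and 0.882 with total mRNA. The SD of the log2 ratio was 0.307, 0.344 and 0.354 in the same order. These measures thus did not single out the mRNAs that the ribosomes held. The log2 ratio of AGA ran from 0.79 with equal weights to 1.19 with mitochondrially encoded genes kept, that of TTC from -0.74 to -0.60 and that of AAA from -0.56 to -0.40. With equal weights TTT (-0.62) was lower than TTC (-0.60), and GGA (0.56) and TGG (0.54) were higher than AGG (0.41), CCA (0.37) and ATA (0.35). Of the 61 codons, 17 were called higher and 15 lower with the same sign in all 18 alternative settings, and of the 20 amino acids, 6 were called higher and 8 lower. The first 10 genes by weight carried 7.93% to 8.17% of it, and without them AGA was at 1.06 and TTC at -0.67. Besides Atp5b and Syp these were Hspa8, a constitutive heat shock chaperone, Atp5a1, the alpha subunit of ATP synthase, Cx3cl1, a neuronal chemokine, Dync1h1, the heavy chain of cytoplasmic dynein, Glul, glutamine synthetase, Scd2, a fatty acid desaturase, Cpe, a carboxypeptidase that processes neuropeptides, and Eef2, the elongation factor that moves the ribosome along. Syp gave the largest single part of the expected Trp (1.62%), Met (1.40%), Tyr (1.72%) and Phe (1.91%), Atp5a1 that of Arg (1.06%) and Cx3cl1 that of Pro (1.22%). No gene therefore set the expectation of these 6 amino acids by itself.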

How the data were processed

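The authors deposited raw counts: whole-number counts per transcript accession (HiSeq) and per A-site codon (MiSeq), by their labels. Ribosome columns were assigned to an instrument by table name. The submitters' processing notes name Bowtie2, HISAT2, HTSeq and mm10. The sources used here do not give A-site placement, strand use or the treatment of multiply matching reads. The members and lists were chosen with earlier results of these data known.

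Of 106519 transcript rows, 29567 were matched by accession and 32989 by symbol to 21529 GENCODE M21 genes (GRCm38) with a complete coding sequence, and 9306 nuclear genes had a count. The 13 mitochondrially encoded rows were left out. Counts per gene, not divided by length, were spread over the codons of the longest coding sequence, and expected shares were averaged over the 3 mice. Reads in untranslated regions could not be separated. The A-site counts may draw on other genes than the HiSeq counts.

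Codons (61), amino acids (20) and synonymous codons (59) were each fitted with edgeR 4.0.16 (quasi-likelihood, robust, R 4.3.3): an intercept-only model whose offset was the expected count, with 1 common dispersion. Adjusted p-values are Benjamini-Hochberg adjusted within each fit, with a threshold of 0.05 and a 1.5-fold mark for large calls. In the synonymous fit the spread was estimated over all codons together. DESeq2 1.42.0 (gene-wise dispersions) and limma 3.58.1 (log2 shares) were alternatives, with other weights, filters, trims of 15 and 5 codons, and each mouse left out. The fits were tested on simulated data. Named codons are the 6 highest, the 6 lowest, the 5 of Ftsj1 substrate tRNAs and ATG, and named amino acids the 4 highest and 4 lowest, with all others by mean; named genes are the 10 of largest weight and the main gene of the 3 highest and 3 lowest amino acids. Mouse numbers pair the A-site and HiSeq libraries because the labels give the same mouse as their source; deviations of observed and expected shares correlated at 0.137, -0.00488 and -0.0379 for the same mouse.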

Additional observations from a re-analysis of the deposited data

How the results depend on the processing

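Of 630 values recomputed for 15 named codons and 20 amino acids, 601 kept their direction and their side of the threshold and 19 changed sign; with or without a change of sign, 8 lost the call and 10 gained one, and the cause was not tested. With the replicate block (each mouse against its own expectation) 52 codons, 18 amino acids and 49 synonymous codons were called, as without it, and it changed no call of a codon or amino acid in the edgeR fit. With mitochondrially encoded genes kept, the log2 ratio was -0.0386 for ATA, -0.367 for TTA and 0.0364 for TTG. With equal gene weights it was -0.227 for TTA, -0.0410 for Cys and -0.138 for Ser. With genes of 2 or more accessions only, chosen after seeing the data, it was -0.146 for TTA, -0.0319 for Cys and -0.126 for Ser. Without the 10 genes of largest weight it was -0.0147 for TTA, -0.00126 for Lys and -0.00317 for Ser. With total mRNA weights it was 0.0364 for TTG and -0.00593 for Ser, and with 15 and 5 end codons left out -0.00159 for TTA. With each mouse left out, TTA ran from -0.0350 (without mouse 2) to 0.0729, TTG from -0.0874 to 0.00232 (without mouse 3), Lys from -0.00660 (without mouse 3) to 0.0273 and Ser from -0.0135 (without mouse 1) to 0.0306. Large codons numbered 3 in place of 6 with equal gene weights and with genes of 2 or more accessions, and large amino acids 1 in place of 2 in both. Large synonymous codons numbered 1 in place of 2 with DESeq2, equal weights, 15 and 5 end codons left out, genes of 2 or more accessions, or without the 10 genes of largest weight. With each mouse left out in turn, 44 to 48 codons, 16 to 18 amino acids and 37 to 49 synonymous codons were called, of which 5 to 7, 1 to 2 and 1 to 2 were large; the single large amino acid came without mouse 2, and the single large synonymous codon without mouse 1 or mouse 3. Median centring was not run for synonymous codons. Depth limited the rarest codons most, with SEs of 0.0163 to 0.0538 in log2 over the 61 codons.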

Other observations

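Lists by first base, second base and G or C content were added after the values were seen. Of 15 codons with G as the second base, among them those of Arg, Gly, Cys and Trp, 9 were higher and 4 lower (median log2 ratio 0.14), against 25 higher and 27 lower of all 61 (median -0.04), and they took 21.2%, 21.5% and 20.8% of the A site against 18.6% expected. Of 16 codons with T as the second base, those of Phe, Leu, Ile, Met and Val, 3 were higher and 9 lower (median -0.11), and they took 23.4%, 23.8% and 23.7% against 26.9%. The 3 higher ones were the isoleucine codons. Codons with A (5 higher and 6 lower of 14) or C (8 higher and 8 lower of 16) as the second base took 32.0% and 23.2%, against 31.5% and 22.9%. By first base, codons starting with T took 14.8% against 16.01%, those starting with A 27.7% against 26.5%, those starting with C 22.9% against 23.4% and those starting with G 34.6% against 34.1%. Of the 8 codons made of G and C alone, 4 were higher and 4 lower, and they took 12.5% against 13.7% expected. Codons with 0 G or C bases were also under expectation, at 7.99% against 8.62% (2 higher and 3 lower of 7). Those with 1 took 35.1% against 33.9% (8 higher and 8 lower of 22). Those with 2 took 44.5% against 43.8% (11 higher and 12 lower of 24).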
